A study of Mus musculus with 8 samples.

Results

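Cholesterol and fatty acid synthesis was followed here through 33 genes chosen by their known role, of which 32 were measured among the 18193 genes of the arrays. They comprise the enzymes from acetyl-CoA to cholesterol, the enzymes that build, elongate and desaturate fatty acids, and the proteins that switch both pathways on. A member was taken where a probe set carried its symbol and no other symbol, and a gene with several such probe sets was represented by the one with the highest mean over the 8 arrays. Acat2 had no such probe set and was not analysed here.

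The cells were leukaemic splenocytes of 4 mice with MLL-AF10 acute myeloid leukaemia, named here by their label numbers _948, _951, _952 and _953. Per the labels, bone marrow cells positive for c-kit, immortalised and carrying the fusion on a retrovirus, were transplanted into sub-lethally irradiated syngeneic hosts (strain written as CD57BL/6 in the labels), and every sample shares this origin. Spleen cells of each mouse were sorted by flow cytometry into a fraction with high c-kit, the receptor CD117 (CD117pos), and a c-kit-negative one (CD117neg; the labels also write low), giving 4 arrays of each. The sources used here do not give the retroviral promoter, the ages of the animals or whether the 4 leukaemias came from separate transductions. The p-values therefore speak only to how the difference between the fractions of a mouse varied among these 4 mice.

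Cholesterol is made from acetyl-CoA through mevalonate and squalene, and fatty acids are made from the same precursor by carboxylation and repeated condensation. Both pathways are switched on by the sterol regulatory element-binding proteins (SREBPs), membrane-bound transcription factors that Scap escorts from the endoplasmic reticulum to the Golgi for cleavage when membrane sterol is low, and that Insig proteins hold back when it is high. Because of this shared control, the enzymes of sterol synthesis often move as a block. Myeloid cells use the products for membranes, for prenylation of small GTPases and as ligands of sterol-sensing receptors.

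The deposited values are probe set intensities, with array medians of 31.1 to 32.8 in CD117neg and 27.5 to 31.1 in CD117pos. Kit, the sorted marker, went from an intensity of 28.6 ± 9.73 to 751 ± 127 (SD, n = 4 in each fraction), which checks the labels. CD117pos of mouse _951 stood apart: its mean correlation with the other CD117pos arrays was 0.931, against 0.968 to 0.969 for each of those. It was the highest or lowest of the 4 in 70.1% of all genes, against 39.9% to 46.7% for the others. Among the members it was so in 59.4%, which was near _948 (56.2%) and _953 (53.1%), with _952 at 31.2%. Of the markers of maturing cells, 7 of 8 monocyte and macrophage genes and 7 of 8 neutrophil genes fell in CD117pos, with summed intensities of 24051 to 32183 against 2082 to 7143 and of 56407 to 62617 against 13613 to 31136, the lowest sum of both lists being that of CD117pos _951. B-cell markers summed to 462 to 707 in CD117neg and 127 to 278 in CD117pos (1 of 5, Cd22, fell). T- and NK-cell markers summed to 138 to 173 and 86.3 to 578 with none of 7 past the test. Cd3d, Cd3e and Cd4 were below 10 on every array, and Cd3g, Cd5 and Ncr1 read up to 25.0. Cd8a read 32.1 to 537, the highest value being that of CD117pos _951, where it made up most of the sum. Mast cell and basophil markers summed to 97.2 to 269 and 304 to 1298 (1 of 6, Mcpt8, rose), with the highest T- and NK-cell and mast cell sums in CD117pos _951. None of 5 erythroid and none of 5 megakaryocyte markers passed the test. The part of other cells in the differences below was not tested, and in these bulk samples fewer cells with a transcript and less of it per cell cannot be told apart.

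Sterol and fatty acid synthesis did not move as a block between the fractions. Of the 32 measured members, 4 rose in CD117pos (Mvk, Dhcr7, Scap and Scd2), 2 fell (Msmo1 and Hmgcs1), and 26 did not pass the test, which was limma's on log2(intensity + 16) with the mouse as a block and an adjusted p under 0.05 over all genes. Over all genes 8.36% rose and 13.8% fell, 22.2% in either direction, against 12.5%, 6.25% and 18.8% of the members. The median difference of the members, CD117pos minus CD117neg on the log2 scale as everywhere below, was -0.0025 (0.17 after quantile normalisation and 0.091 after centring each array), and that of all genes -0.011 (0.064 and 0.082). The share of members called was thus near that of all genes. Among genes of mean intensity of at least 50 it was below that of all genes so filtered. There 4 of 28 members rose and 4 fell, against 1721 and 2581 of 9954 genes. In 5 members the 4 CD117pos arrays did not overlap the 4 CD117neg arrays, above them for Mvk, Dhcr7 and Scap and below them for Msmo1 and Acly, while of all genes 10.4% lay above, 17.2% below and 27.6% either way without overlap. Quantile normalisation gave 5 members higher and 1 lower (13.4% and 10.7% of all genes), and centring 4 and 2 (10.8% and 11.5%). Without mouse _951, 4 were higher and 4 lower (11.7% and 16.4%), and without the mouse block 4 and 1 (8.38% and 14%). Msmo1 alone changed at least 2-fold, 3.12% of the members against 10.6% of all genes. By role, 1 of 6 measured mevalonate enzymes rose and 1 fell, 1 of 11 sterol enzymes rose and 1 fell, 1 of 6 SREBP control genes rose, and 1 of 9 fatty acid enzymes rose. The direction was the same in all 4 mice for 14 of the 32 members and for 7940 of all 18193 genes, a similar share.

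**Figure D1:**
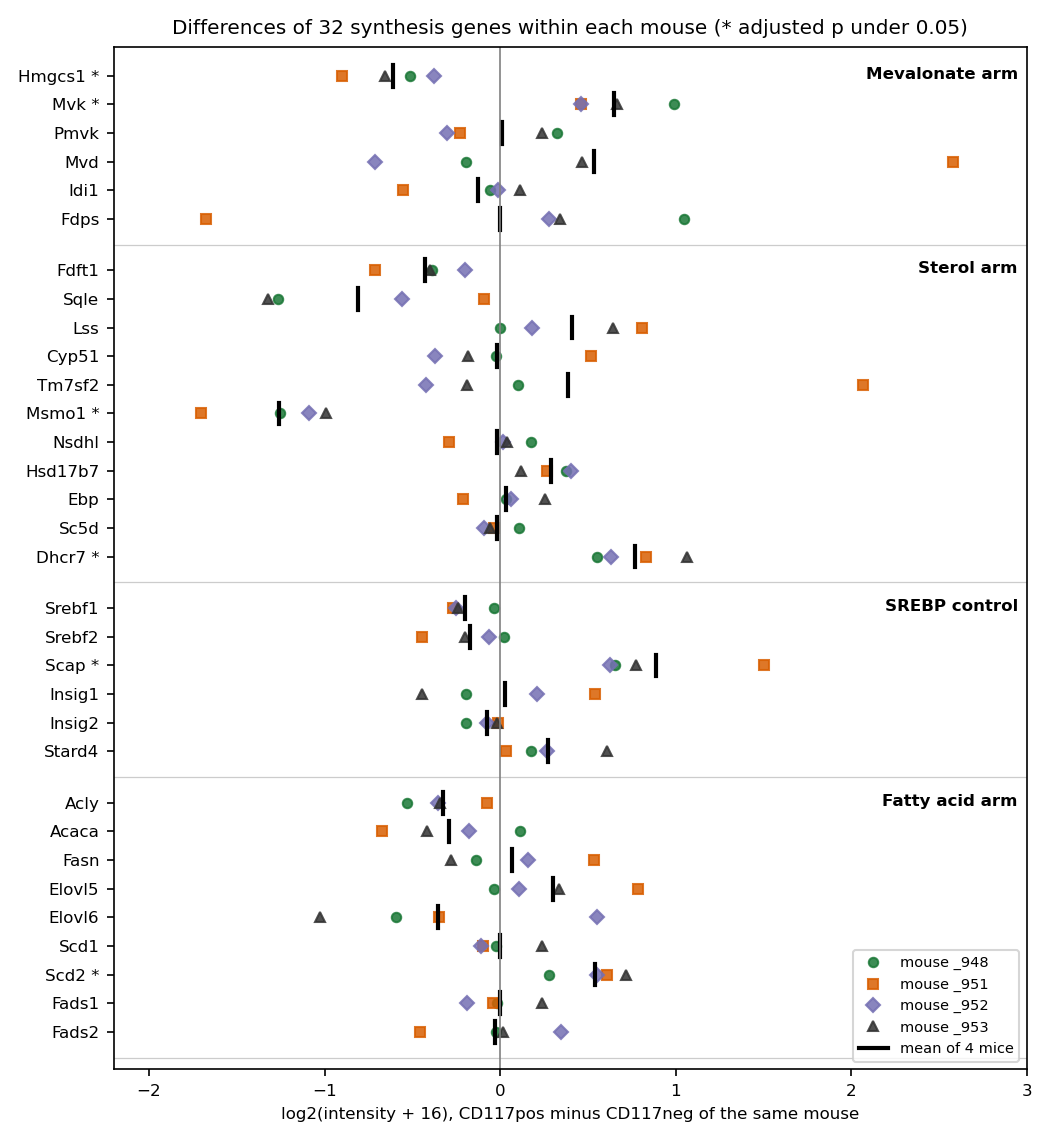
Difference of every measured member between the fractions on the log2(intensity + 16) scale, CD117pos minus CD117neg, grouped by role, with a point for each mouse, a bar for the mean of the 4 and an asterisk for members past the test. The means run from -1.26 for Msmo1 to 0.89 for Scap, and in Mvd, Fdps and Tm7sf2 mouse _951 lies far from the other 3.

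The largest change was in Msmo1, the methylsterol monooxygenase that starts removal of the methyl groups left after the lanosterol demethylase Cyp51 has acted. Its CD117neg intensities were 506, 767, 535 and 650 in mice _948, _951, _952 and _953 (the order used throughout), and its CD117pos intensities 203, 224, 242 and 319. Every CD117pos array lay below every CD117neg array. The mean fell from 614 ± 119 to 247 ± 50.6 (SD, n = 4), a difference of -1.26 ± 0.15 (SE; limma adjusted p = 0.00483). This call held under all 15 alternatives run, with adjusted p up to 0.0396, and the second Msmo1 probe set also fell, by 0.46.

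Hmgcs1 encodes the cytosolic synthase that condenses acetyl-CoA and acetoacetyl-CoA into HMG-CoA at the entry to the pathway. It read 1179, 1571, 1476 and 2054 in CD117neg and 821, 835, 1131 and 1298 in CD117pos. CD117pos was lower in all 4 mice, but the ranges overlapped because CD117pos _953 exceeded CD117neg _948. The mean fell from 1570 ± 363 to 1021 ± 234, a difference of -0.61 ± 0.13 (limma adjusted p = 0.0248). Of its 5 probe sets 2 fell and the differences ran from -0.64 to 0.09. The call was lost without the mouse block (limma adjusted p = 0.0706), after quantile normalisation (-0.40, adjusted p = 0.0697), and without mouse _948, _952 or _953 (adjusted p = 0.0927, 0.0653 and 0.105).

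In the same pathway Mvk and Dhcr7 went the other way. Mvk, mevalonate kinase, read 43.6, 42.6, 55.1 and 54.8 in CD117neg and 103, 64.8, 81.9 and 96.6 in CD117pos. All CD117pos arrays were above all CD117neg arrays, and the mean rose from 49.0 ± 6.84 to 86.5 ± 16.8, a difference of 0.65 ± 0.14 (limma adjusted p = 0.0241). Dhcr7, the reductase of the last step to cholesterol, read 192, 171, 160 and 190 in CD117neg and 289, 316, 257 and 415 in CD117pos. These groups did not overlap either, and the mean rose from 178 ± 15.3 to 319 ± 68.3, a difference of 0.77 ± 0.13 (limma adjusted p = 0.0125). With 3 mice, the Mvk difference was 0.53 without _948, 0.71 without _952 and 0.64 without _953 (limma adjusted p = 0.0995, 0.0746 and 0.102). That of Dhcr7 was 0.82 without _952 and 0.67 without _953 (limma adjusted p = 0.0533 and 0.0606). The lone other Mvk probe set, at a mean intensity of 14.8, had a difference of 0.23 that did not pass.

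**Figure D2:**
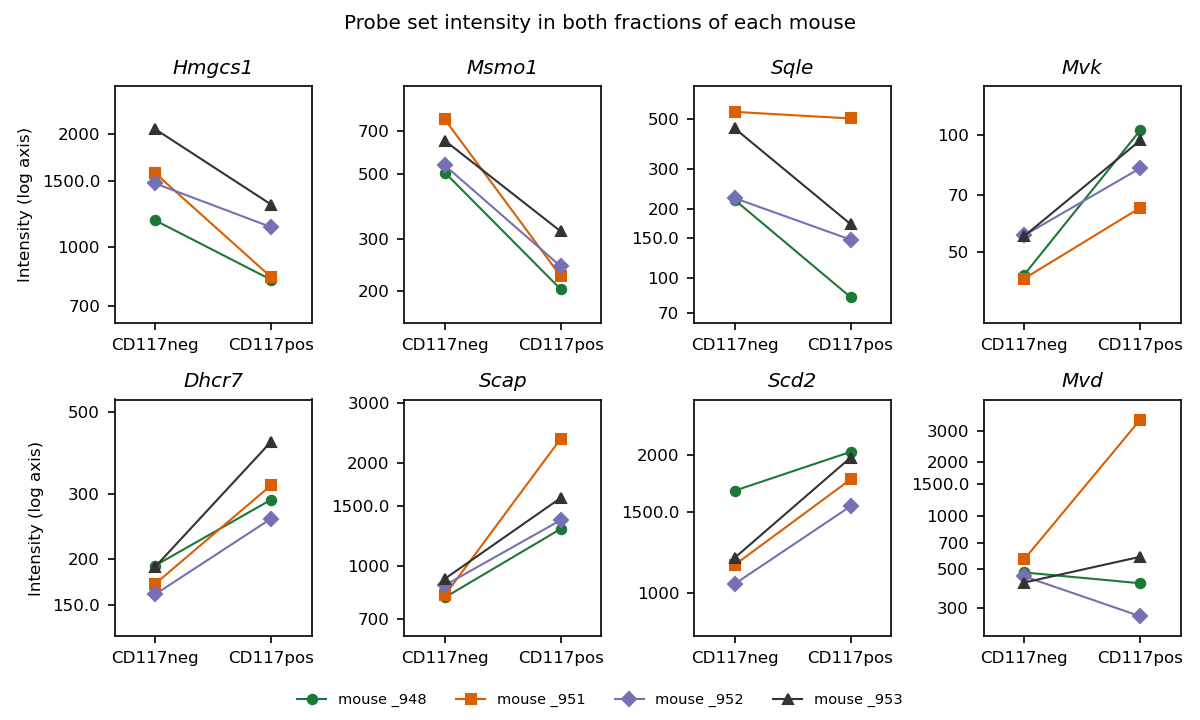
Intensity (log axis) of 8 members in both fractions, with 1 line for each mouse. All 4 lines go down for Hmgcs1, Msmo1 and Sqle and up for Mvk, Dhcr7, Scap and Scd2, while the Mvd lines diverge, with 3470 in CD117pos of mouse _951. The second Mvd probe set, which is not drawn, read 102 on that array.

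The promoters of these 4 enzymes are shown because they belong to the members of sterol synthesis that changed, in both directions, and because sterol enzyme promoters are known for pairing SREBP sites with boxes of nuclear factor Y. The 250 bases before the annotated start are printed 5′ to 3′ on the gene's strand from the RefSeq promoter table (GRCm38.p6). Capitals mark CCAAT, the nuclear factor Y core, or its reverse complement ATTGG, and TCACNCCAC, a sterol regulatory element. For Dhcr7 the one of its 3 annotated starts with a match is shown.
Hmgcs1, chr13:119690101-119690350, plus strand: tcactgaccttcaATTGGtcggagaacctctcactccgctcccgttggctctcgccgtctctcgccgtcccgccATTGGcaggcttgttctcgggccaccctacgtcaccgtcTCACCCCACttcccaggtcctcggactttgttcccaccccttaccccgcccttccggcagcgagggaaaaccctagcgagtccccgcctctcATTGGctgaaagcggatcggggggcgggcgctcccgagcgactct
Msmo1, chr8:64733579-64733828, minus strand: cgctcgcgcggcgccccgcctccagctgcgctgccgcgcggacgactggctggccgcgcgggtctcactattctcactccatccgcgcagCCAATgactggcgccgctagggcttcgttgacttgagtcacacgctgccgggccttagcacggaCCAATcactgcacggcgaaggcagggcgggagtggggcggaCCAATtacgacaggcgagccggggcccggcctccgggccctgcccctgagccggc
Mvk, chr5:114444019-114444268, plus strand: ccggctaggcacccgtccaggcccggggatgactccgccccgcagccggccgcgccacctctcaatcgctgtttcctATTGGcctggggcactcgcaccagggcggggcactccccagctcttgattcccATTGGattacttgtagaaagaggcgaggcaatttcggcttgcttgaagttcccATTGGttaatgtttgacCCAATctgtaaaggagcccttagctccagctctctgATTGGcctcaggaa
Dhcr7, chr7:143829964-143830213, plus strand: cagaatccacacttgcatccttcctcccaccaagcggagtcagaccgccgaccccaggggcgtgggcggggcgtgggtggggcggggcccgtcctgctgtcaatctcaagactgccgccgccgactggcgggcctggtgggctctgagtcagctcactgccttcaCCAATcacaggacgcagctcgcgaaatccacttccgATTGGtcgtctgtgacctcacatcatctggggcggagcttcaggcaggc
Hmgcs1, which fell, held the lone TCACNCCAC match of the members, starting at position -137 from the transcription start, beside 3 CCAAT matches. Msmo1, which fell furthest, held 3 CCAAT matches, Mvk, which rose, held 5, and the Dhcr7 window held 2. Hmgcs1 and Msmo1, which fell, and Mvk, which rose, all held CCAAT matches, while the Dhcr7 window was picked for having a match. Searched on both strands, CCAAT was in the windows of 20 of the 26 members with a table entry (76.9%), against 37.5% of all 27025 genes, and in 21 of 34 member windows (61.8%), against 33.8% of all 32851. TCACNCCAC was in 1 of 34 (2.94%), against 1.05% of all, and it overlapped no CCAAT match. Among members with an entry, CCAAT was present in 2 of 3 that rose, 2 of 2 that fell and 16 of 20 that did not pass the test. Neither Scap window held a match. A match describes letters in a window and not binding.

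The remaining mevalonate enzymes did not pass the test. Idi1, the isomerase of isopentenyl diphosphate, read 465, 752, 524 and 729 in CD117neg and 447, 508, 520 and 789 in CD117pos, with a difference of -0.13 (limma adjusted p = 0.608). Pmvk, phosphomevalonate kinase, read 179, 223, 172 and 262 against 228, 188, 137 and 312, with a difference of 0.01. Both fractions overlapped for each of these enzymes.

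In Fdps and Mvd the result turned on CD117pos of mouse _951. Fdps, which makes the farnesyl diphosphate used for squalene and for prenylation, read 262, 584, 442 and 487 in CD117neg and 557, 172, 539 and 621 in CD117pos. CD117pos was higher in 3 mice and lower in _951, where its value lay far under the other 3. Its difference was -0.00 (95% interval -1.08 to 1.07), and 0.55 without mouse _951. Mvd, the decarboxylase that yields isopentenyl diphosphate, read 478, 567, 455 and 419 in CD117neg and 416, 3470, 271 and 586 in CD117pos, so its difference of 0.53 ± 0.53 became -0.15 without mouse _951. The second Mvd probe set, of the type that can match related transcripts, fell by 0.96 ± 0.16 (limma adjusted p = 0.0130 over all probe sets). In CD117pos of _951, where the first probe set read 3470, the second read 102, its lowest value on any array. The probe sets of Mvd thus differed in direction, and the gene has no settled one.

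Between squalene and cholesterol, the enzymes other than Msmo1 and Dhcr7 did not pass the test. Sqle, squalene epoxidase and a rate-limiting step, read 220, 537, 224 and 455 in CD117neg and 82.1, 503, 147 and 172 in CD117pos. It was lower in CD117pos of all 4 mice, least so in _951, and the ranges overlapped. Its mean was 359 ± 162 in CD117neg and 226 ± 188 in CD117pos, a difference of -0.81 ± 0.24 (95% interval -1.40 to -0.22; limma adjusted p = 0.0626). Without mouse _951 that difference was -1.05 (limma adjusted p = 0.0125). Fdft1, squalene synthase, read 462, 552, 538 and 677 against 349, 330, 466 and 509, lower in all 4 mice with a difference of -0.43 ± 0.13 (limma adjusted p = 0.0681). Its other 3 probe sets differed by -0.03 to 0.12.

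Several later enzymes stood at about the same level in both fractions in the probe sets used. Cyp51, the lanosterol demethylase, read 412, 630, 597 and 833 in CD117neg and 405, 907, 457 and 731 in CD117pos, a difference of -0.02 (95% interval -0.44 to 0.41). Nsdhl, the decarboxylating dehydrogenase that follows Msmo1, read 388, 567, 445 and 540 against 441, 461, 450 and 555 (difference -0.02). Sc5d, a sterol desaturase, read 278, 430, 325 and 368 against 300, 420, 304 and 353 (difference -0.02). These small differences do not show that the levels are equal, and the direction of all 3 turned with the scaling between arrays. Ebp, the sterol isomerase, read 1471, 1413, 1563 and 1514 against 1508, 1220, 1631 and 1811 (difference 0.04).

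Lss, lanosterol synthase, read 192, 235, 180 and 192 in CD117neg and 192, 424, 206 and 310 in CD117pos, a difference of 0.41 (limma adjusted p = 0.159). Hsd17b7, a ketosteroid reductase of the pathway, read 179, 303, 194 and 356 against 237, 367, 262 and 389, higher in all 4 mice by 0.29 (limma adjusted p = 0.134). The other Hsd17b7 probe sets, at mean intensities of 19.8 to 68.3, differed by -0.24 to 0.19 and did not pass. Tm7sf2, a sterol reductase, read 231, 233, 226 and 176 against 249, 1031, 165 and 153. As with the first Mvd probe set, the CD117pos value of mouse _951 was several times the others, and the difference was 0.39 ± 0.43, or -0.17 without that mouse.

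Within each fraction the sterol enzymes varied by mouse. Relative to the mean of the 4 arrays of its fraction, the median of the 11 sterol enzymes was -0.25, 0.23, -0.10 and 0.10 (log2) in CD117neg and -0.21, 0.25, -0.22 and 0.24 in CD117pos. Mice _951 and _953 were therefore above their fraction's mean in both fractions, and _948 and _952 below it. In mouse _953, 9 of 11 enzymes lay above the mean in both fractions, and in mouse _948, 2 of 11 in CD117neg and 0 of 11 in CD117pos. Over all genes these medians stayed between -0.04 and 0.04, though a median over so many genes varies less than one over 11. The mouse term of the limma fit passed its test for 0 of the 32 members and 0 of all genes at an adjusted p under 0.05 (at an unadjusted p under 0.05, 4 members and 1403 genes), so this pattern is a description of these 4 mice. The SREBP control genes ran the same way, with medians of -0.084, 0.062, -0.098 and 0.13 in CD117neg and -0.22, 0.14, -0.14 and 0.14 in CD117pos. The 6 mevalonate enzymes did so in CD117neg (-0.28, 0.17, -0.064 and 0.22) but not in CD117pos, where _951 was at -0.19 (-0.078, -0.19, -0.068 and 0.44). The fatty acid members differed: their medians were 0.11, -0.06, 0.03 and 0.07 in CD117neg and 0.03, -0.04, -0.02 and 0.00 in CD117pos. The 19 other fatty acid enzymes described below had the signs of the sterol enzymes, so the pattern was not particular to sterol genes. Their medians were -0.095, 0.014, -0.080 and 0.098 in CD117neg and -0.055, 0.21, -0.25 and 0.066 in CD117pos. The other related lists did not have these signs in both fractions.

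**Figure D3:**
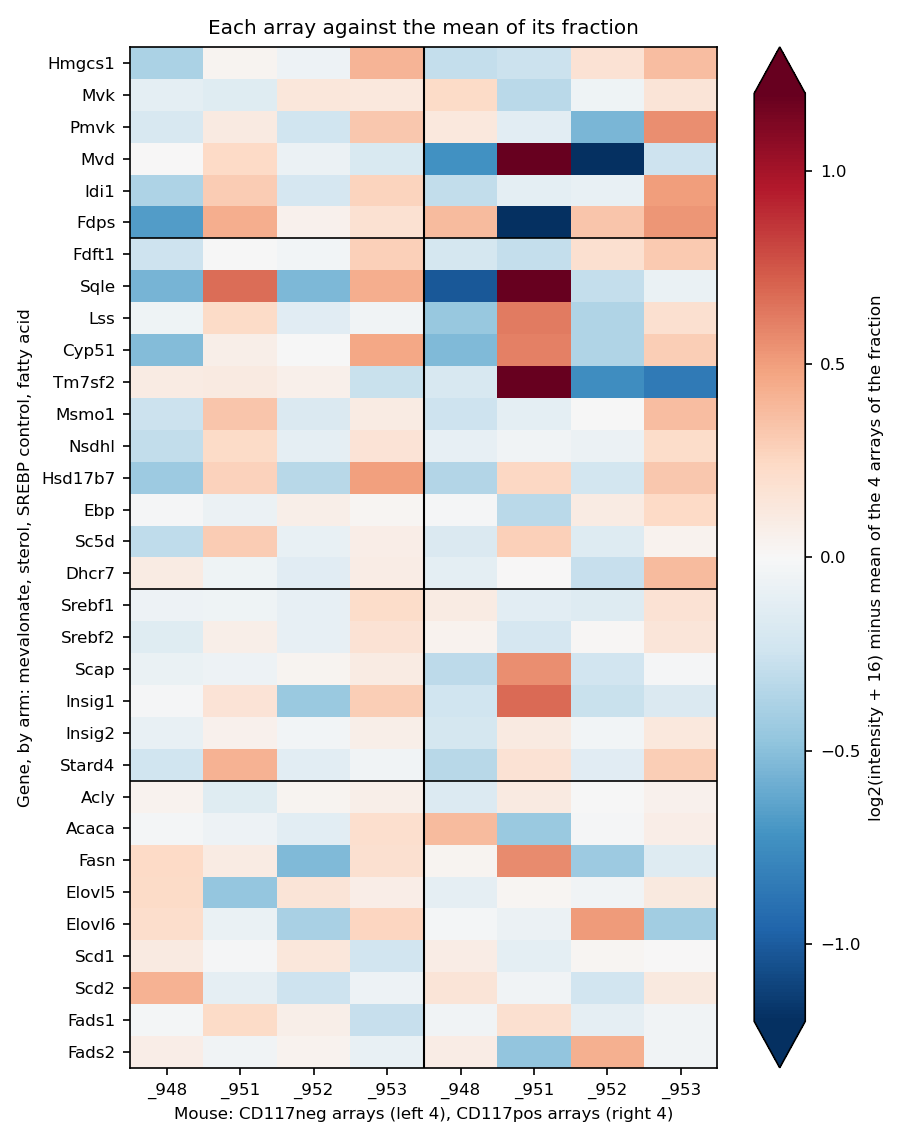
Deviation of each measured member (rows, by role) on each array (columns, by fraction and mouse) from the mean of its fraction, in log2 units (red above, blue below; the darkest shades also hold values past the ends of the scale). The sterol enzymes set mice _951 and _953 above and _948 and _952 below, with medians of 0.23 and 0.10 against -0.25 and -0.10 in CD117neg.

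Of the genes that control SREBP, Scap rose and the transcription factors themselves did not pass the test. Scap read 809, 821, 878 and 917 in CD117neg and 1283, 2355, 1361 and 1580 in CD117pos. Every CD117pos array was above every CD117neg array, with _951 the highest. The mean rose from 856 ± 50.4 to 1645 ± 490, a difference of 0.89 ± 0.18 (limma adjusted p = 0.0213). Without mouse _951 the difference was 0.68 (limma adjusted p = 0.00921), while without _948, _952 or _953 it was 0.97, 0.98 and 0.93 (limma adjusted p = 0.0733, 0.0652 and 0.0849). A second Scap probe set differed by 0.23 and did not pass.

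Srebf1, the SREBP gene better known for fatty acid enzymes, read 659, 662, 642 and 805 in CD117neg and 643, 547, 536 and 678 in CD117pos. It was lower in CD117pos of all 4 mice by a small amount, -0.20 ± 0.11 (95% interval -0.47 to 0.08; limma adjusted p = 0.273), which became 0.01 after quantile normalisation. Srebf2, better known for sterol enzymes, read 197, 232, 205 and 249 against 200, 166, 195 and 215, with a difference of -0.17 ± 0.13 (95% interval -0.49 to 0.14). A second Srebf2 probe set was lower in CD117pos of all 4 mice, by -0.68 ± 0.19, and did not pass (limma adjusted p = 0.0621 over all probe sets). SREBPs are controlled by cleavage, which transcript levels do not measure.

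Insig1, which retains Scap in the endoplasmic reticulum and is itself an SREBP target, read 656, 748, 482 and 819 in CD117neg and 571, 1094, 560 and 599 in CD117pos. Its difference was 0.03 ± 0.19 (95% interval -0.44 to 0.49), and -0.14 without mouse _951, whose CD117pos value was far above the other 3. Insig2, its paralogue, read 540, 597, 563 and 606 against 471, 591, 533 and 599 (difference -0.07 ± 0.11). Stard4, a sterol carrier of the cytosol, read 377, 602, 408 and 435 against 428, 616, 494 and 672, higher in all 4 mice by 0.27 ± 0.14 (limma adjusted p = 0.229). Of its 3 probe sets, with differences of 0.27 to 0.69, another than the one above rose (0.69 ± 0.13, limma adjusted p = 0.0187 over all probe sets).

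Among the fatty acid enzymes Scd2 rose and the synthase itself did not pass the test. Scd2, a stearoyl-CoA desaturase that makes monounsaturated acyl chains, read 1672, 1152, 1048 and 1194 in CD117neg and 2031, 1769, 1547 and 1973 in CD117pos. It was higher in CD117pos of all 4 mice, with an overlap made by the high CD117neg value of _948. The mean rose from 1266 ± 277 to 1830 ± 220, a difference of 0.54 ± 0.12 (limma adjusted p = 0.0301). Leaving out _948, _952 or _953 gave 0.63, 0.54 and 0.48 (limma adjusted p = 0.0685, 0.118 and 0.123). Its paralogue Scd1 read 42.2, 37.5, 43.4 and 29.9 against 41.4, 34.0, 39.1 and 38.1, close to the array medians, with a difference of 0.00 (95% interval -0.29 to 0.30). The other Scd2 probe sets, at mean intensities of 30.4 and 32.3, had differences of 0.01 and 0.91. Neither passed (limma adjusted p = 0.978 and 0.0526 over all probe sets).

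Acly, which cleaves citrate to cytosolic acetyl-CoA and so feeds both pathways, read 3346, 2940, 3314 and 3410 in CD117neg and 2314, 2795, 2586 and 2686 in CD117pos. The groups did not overlap, CD117pos being lower, but the difference of -0.33 ± 0.12 (95% interval -0.63 to -0.02) did not pass (limma adjusted p = 0.127). Without mouse _951 it was -0.41 (limma adjusted p = 0.0461). Acaca, the acetyl-CoA carboxylase that commits carbon to fatty acids, read 402, 391, 372 and 472 against 436, 239, 327 and 349, with a difference of -0.29 ± 0.16 (95% interval -0.69 to 0.11). Fasn, fatty acid synthase, read 850, 771, 494 and 826 against 773, 1126, 554 and 677, with a difference of 0.07 ± 0.17 (95% interval -0.34 to 0.48). The fractions overlapped for Acaca and Fasn, and the Fasn difference was -0.08 without mouse _951.

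The elongase Elovl5, which lengthens polyunsaturated chains, read 3188, 1969, 3020 and 2871 in CD117neg and 3110, 3409, 3261 and 3632 in CD117pos (difference 0.30, limma adjusted p = 0.271). A second Elovl5 probe set was higher in CD117pos of all 4 mice, by 0.64 ± 0.18, and did not pass (limma adjusted p = 0.0606 over all probe sets). In the probe sets used, Elovl6, which lengthens saturated chains, and the desaturases Fads1 and Fads2 were at 3.02 to 55.2 on all arrays. Many of these values were near or under the array medians. Elovl6 read 33.2, 24.2, 16.3 and 34.6 in CD117neg and 16.7, 15.7, 31.3 and 8.87 in CD117pos (difference -0.35). Fads1 read 43.6, 55.2, 47.9 and 34.1 against 42.8, 53.2, 40.2 and 43.1 (difference -0.00). A second Fads1 probe set read 19.2 to 237, highest in CD117pos _951, and its difference of 0.64 ± 0.38 did not pass. Fads2 read 12.5, 10.1, 11.7 and 9.33 against 11.98, 3.02, 19.3 and 9.62 (difference -0.03). The fractions overlapped for all 3, and none passed the test. At such intensities a difference on this scale understates a change.

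Genes around the 2 pathways, in 5 lists by role, gave a wider frame: of 68 measured, 7 rose (10.3%) and 15 fell (22.1%), against 8.36% and 13.8% of all genes. The split turned with the scaling, to 13 higher and 12 lower after quantile normalisation and 12 and 11 after centring. Their median was -0.13, and it moved to 0.021 after quantile normalisation and -0.036 after centring. The lowest median was that of sterol uptake, storage and efflux, in which 5 of 11 fell (45.5%, against 13.8% of all genes) and none rose, with a median of -0.55, and -0.45 under both of those scalings. The count was 3 of 11 under both scalings and with a pseudocount of 1. Lipa, the lysosomal lipase that frees cholesterol from esters, read 2141, 1472, 1987 and 2518 in CD117neg and 543, 307, 820 and 433 in CD117pos. These groups lay far apart, and the mean fell from 2030 ± 433 to 526 ± 218 (-1.98 ± 0.22, limma adjusted p = 0.00354). With probe sets of shared sequence left out, Lipa rested on another probe set, whose difference of -0.91 did not pass (limma adjusted p = 0.130). Npc1, which exports that cholesterol from the lysosome, read 497, 563, 623 and 549 against 235, 300.4, 293 and 241, again without overlap, and fell by 1.02 (limma adjusted p = 0.00346). Stard3, a late endosomal sterol transporter, fell by 0.69, and Abcg1, a sterol exporter, fell by 0.50 (limma adjusted p = 0.0113 and 0.0265). The Abcg1 call was lost in 8 of 15 alternatives, both scalings among them (limma adjusted p up to 0.122), and that of Stard3 in 3, each with 1 mouse left out (up to 0.0639). Npc2, the lysosomal partner of Npc1, was the other gene that fell. Without mouse _948, _952 or _953 the count was 2 of 11, and of all genes 1230, 1404 and 1219 fell, against 2518 with all mice. The monocyte and macrophage and neutrophil markers, whose sums are given above, fell in the same arrays, and their part was not tested.

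Among genes of SREBP processing and sterol sensing 3 of 12 fell (25%, against 13.8% of all genes) and none rose, and 2 of 12 fell under both other scalings. Their median was -0.28 (-0.13 after quantile normalisation and -0.18 after centring). Mylip, a ubiquitin ligase that removes lipoprotein receptors and is a target of sterol-sensing nuclear receptors, fell from 2711 ± 240 to 1294 ± 148 (-1.06 ± 0.11, limma adjusted p = 0.00337). Prkab1, a subunit of the kinase AMPK that inhibits acetyl-CoA carboxylase, fell by 1.10 from a mean of 1591, and Rxra, a partner of nuclear receptors, fell by 0.56 from a mean of 56.8 (limma adjusted p = 0.00809 and 0.0327). The count was 1 of 12 without mouse _953 and 2 of 12 without _948 or _952. Of all 18193 genes, 1219, 1230 and 1404 fell without _953, _948 and _952.

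Of 19 other fatty acid enzymes, 3 rose (15.8%) and 5 fell (26.3%), against 8.36% and 13.8% of all genes. Their median was -0.039, and it turned to 0.020 after quantile normalisation and 0.054 after centring. Acss2, which makes cytosolic acetyl-CoA from acetate, fell from 112 ± 34.3 to 38.6 ± 20.2 (-1.25 ± 0.15, limma adjusted p = 0.00469). The elongase Elovl7 fell from 114 ± 46.8 to 20.8 ± 8.96 (-1.76 ± 0.19), and the acyl-CoA synthetase Acsl4, which favours arachidonate, fell from 682 ± 128 to 318 ± 42.0 (-1.06 ± 0.13). Hacd1, a dehydratase of the elongation cycle, rose from 1321 ± 660 to 3156 ± 905 (1.34 ± 0.19). The limma adjusted p of these 3 was 0.00345, 0.00531 and 0.00740. Hacd3 and Slc25a1, the mitochondrial citrate carrier, also rose, and Elovl1 and Fads3 fell. With 3 mice, 1 rose without _948, _952 or _953, and 4 fell. Over all genes, 450, 611 and 440 rose without those mice, and 1230, 1404 and 1219 fell.

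Of 9 other sterol and isoprenoid enzymes, 1 rose (11.1%, against 8.36% of all genes) and none fell. Pdss2, a subunit of the synthase of the ubiquinone side chain, rose from 83.2 ± 1.93 to 143 ± 30.0 (0.66 ± 0.14, limma adjusted p = 0.0230). The number that rose was 3 under both other scalings (13.4% and 10.8% of all genes) and 0 without mouse _948, _952 or _953. Of all 18193 genes, 450, 611 and 440 rose without those mice. Of 17 genes of fatty acid oxidation, 3 rose (17.6%) and 2 fell (11.8%), against 8.36% and 13.8% of all genes. Under quantile normalisation and after centring 6 of the 17 rose, against 13.4% and 10.8% of all genes. Etfb, a subunit of the electron transfer flavoprotein that accepts electrons from acyl-CoA dehydrogenases, rose from 1881 ± 177 to 3673 ± 373 (0.96 ± 0.13, limma adjusted p = 0.00685), and Decr1, a reductase for unsaturated chains, rose by 0.80. Eci1, an isomerase of unsaturated chains, also rose. Slc25a20 and Cpt1a, which carry acyl chains into mitochondria as carnitine esters, fell by 0.81 and 0.79. The limma adjusted p of Decr1, Slc25a20 and Cpt1a was 0.0200, 0.00997 and 0.0116. Without mouse _948, _952 or _953, 1 gene of this list rose, and 0, 2 and 0 fell. Over all genes 1230, 1404 and 1219 then fell.

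**Figure D4:**
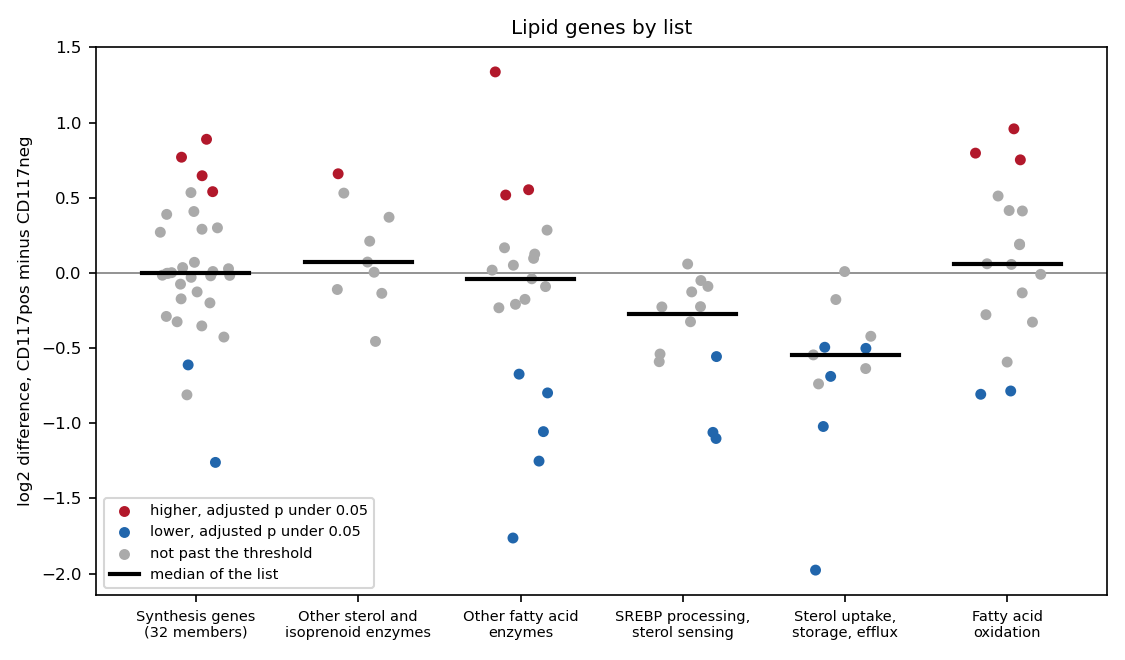
Difference of every measured gene between the fractions (log2, CD117pos minus CD117neg) among the 32 members and in the 5 related lists, with the list median as a bar and genes past the test in red (higher) or blue (lower). Sterol uptake, storage and efflux has its median at -0.55 (-0.45 under both other scalings), while that of the members lies at -0.0025 (0.17 after quantile normalisation and 0.091 after centring).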

How the data were processed

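RNA of 8 samples, amplified in 2 cycles per the labels, was measured on Affymetrix arrays. The deposited values are linear probe set intensities of the authors; how they were summarised and scaled was not given in the sources used here, and no background or scaling step was added. Of 45101 probe sets, 64 controls were left out and 34945 carry 1 gene symbol (932 several, 9160 none) in GEO's platform annotation. Each gene kept the probe set with the highest mean log2(intensity + 16), giving 18193 genes. limma 3.58.1 in R 4.3.3 fitted fraction with mouse as a block (lmFit, eBayes), two-sided, with Benjamini-Hochberg adjustment over all genes and a threshold of 0.05, after a test on simulated data. The number of arrays limits the precision. The mouse number in the labels pairs the samples, since both fractions came from the same animal; same-mouse deviations correlated at 0.12 to 0.27. The members and lists were chosen with earlier results of these data known. Every member is described, with values per array, and of each related list up to 4 genes with the largest difference past the threshold. The promoter table matched 26 of 33 members (not Fdps, Fdft1, Sqle, Scd1, Scd2, Fads1 and Stard4). Tables and figures used Python 3.11.15, pandas 2.3.3 and matplotlib 3.10.9. Scaling, pseudocount, intensity filter, probe set choice, intensity trend, the block and each mouse were varied.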

Additional observations from a re-analysis of the deposited data

Results flagged for a closer look

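In 4 of the 64 member groups of 4 arrays, 1 array lay far from the other 3 relative to the range of the group on the log2(intensity + 16) scale (past Dixon's critical value for 4 samples). Chance gives such a gap in about 1 in 20 groups, or 3.2 of these 64. Of these, 2 were in CD117pos of mouse _951. Fdps, farnesyl diphosphate synthase, stood at 172 there against 539 to 621 in the other CD117pos arrays. Insig1, the retention protein of Scap, stood at 1094 against 560 to 599. The other 2 were in CD117neg of mouse _953, where the sterol reductase gene Tm7sf2 stood at 176 against 226 to 233 and the transcription factor gene Srebf1 at 805 against 642 to 662. On the intensities themselves 5 groups passed: Fdps did not, and CD117pos of mouse _951 also passed for Mvd (3470 against 271 to 586) and Tm7sf2 (1031 against 153 to 249). The second Mvd probe set did not share the high value and read 102 on that array.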

How the results depend on the processing

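All 6 called members kept their direction in 15 alternatives, but only Msmo1 stayed past the threshold in each. Mvk lost its call with the mean of its probe sets (0.44, limma adjusted p = 0.152), Scd2 with a pseudocount of 1 (0.55, adjusted p = 0.0732), and Hmgcs1 with a pseudocount of 1 (adjusted p = 0.0610), the mean of its probe sets (-0.39, 0.0718) and without shared-sequence probe sets (-0.33, 0.179). The 4 members that rose became 0 to 4 with 1 mouse left out: 0 without _952 or _953, 1 without _948 and 4 without _951. Over all genes 1521 rose, and 450, 2130, 611 and 440 did without _948, _951, _952 and _953. The 2 that fell became 1 to 4 with 1 mouse left out (4 without _951). The number was 4 among genes of mean intensity of at least 50 (28 members), where 2581 of 9954 genes fell, a larger share. It was 1 under quantile normalisation, a pseudocount of 1, the mean of all probe sets, no shared-sequence probe sets, and without the mouse block. Fewer mice leave fewer degrees of freedom; the cause of the other shifts was not tested. Of 26 members not called, 5 passed somewhere: Sqle, Fdft1, Hsd17b7, Stard4 and Acly.

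The members' median was 0.17 under quantile normalisation, 0.091 after centring, -0.041 to 0.016 with 1 mouse left out and -0.096 without CD117pos of _951 (no block). Related genes rose in 13 cases under quantile normalisation, 12 after centring, 4 with a pseudocount of 1, 11 with a pseudocount of 64, and 2 to 6 with 1 mouse left out; 7 to 17 fell with 1 mouse left out; their median was 0.021 and -0.036 under those scalings and, with the mean of all probe sets, -0.061. Over all genes, 2437 rose under quantile normalisation, 997 with a pseudocount of 1 and 440 to 2130 with 1 mouse left out, and 1219 to 2985 fell. The split of 1521 higher and 2518 lower genes became 2437 and 1943 under quantile normalisation and 1958 and 2084 after centring, and that of the members 5 and 1 and 4 and 2. The median of all genes was 0.064 and 0.082 under those scalings, -0.043 with the intensity filter and -0.031 without CD117pos of _951. Without the mouse block, 4 members rose and 1 fell, while 1525 and 2540 of all genes did; the pairing changed the call of no member other than Hmgcs1.

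Signs turned in members that did not pass the test. After centring, the difference was 0.091 for Fdps, 0.077 for Cyp51, 0.078 for Nsdhl, 0.074 for Sc5d, 0.019 for Insig2, 0.091 for Fads1 and 0.064 for Fads2. After quantile normalisation it was 0.081 for Idi1, 0.17 for Fdps, 0.19 for Cyp51, 0.18 for Nsdhl, 0.15 for Sc5d, 0.013 for Srebf1, 0.13 for Insig2, 0.10 for Fads1 and 0.0096 for Fads2. With the mean of all probe sets it was -0.21 for Mvd, 0.083 for Cyp51, -0.0034 for Scd1, 0.32 for Fads1 and 0.052 for Fads2. With the probe set of highest mean intensity, an alternative chosen after seeing the data, it was 0.64 for Fads1. With a pseudocount of 1 it was 0.00011 for Fads1. With a pseudocount of 64 it was 0.011 for Fdps and -0.00049 for Scd1. Without shared-sequence probe sets it was -0.12 for Hsd17b7. Without CD117pos of _951 (no block) it was -0.23 for Mvd, 0.41 for Fdps, -0.21 for Tm7sf2, -0.20 for Insig1, -0.12 for Fasn and 0.13 for Fads2. With each mouse left out in turn it ran from -0.096 to 0.11 for Pmvk, from -0.15 to 0.95 for Mvd, from -0.21 to 0.015 for Idi1, from -0.35 to 0.55 for Fdps, from -0.19 to 0.10 for Cyp51, from -0.17 to 0.66 for Tm7sf2, from -0.080 to 0.077 for Nsdhl, from -0.038 to 0.12 for Ebp, from -0.061 to 0.0049 for Sc5d, from -0.14 to 0.18 for Insig1, from -0.085 to 0.19 for Fasn, from -0.077 to 0.039 for Scd1, from -0.082 to 0.059 for Fads1 and from -0.16 to 0.11 for Fads2. Scd1, Elovl6, Fads1 and Fads2, with a mean intensity under 50, lie near the array medians, which limits what their values show.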
